A study of Homo sapiens with 6 samples.

Results

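Genes of the centrosome and the centromere were followed in the human breast cancer line MDA-MB-231, which lacks hormone receptors and HER2 amplification, after 12 h of dinaciclib, a small-molecule inhibitor of several cyclin-dependent kinases, and at baseline. Members were all genes whose current symbol is CENP and 1 letter, CEP and digits, HAUS and a digit, or TUBGCP and a digit, which gave 45 of the 11963 genes measured: 13 CENP, 23 CEP, 5 HAUS and 4 TUBGCP genes. CENPS, CEP170 and HAUS4 are annotated only on probe sets that name several genes and were not counted as members. The dinaciclib group held 3 samples, F, 4 and 5, taken at 12 h, and the baseline group held 3 samples, E, 4 and 5, taken at 0 h. All were grown in RPMI medium with serum and antibiotics. No dose is given, and it is not stated whether DMSO, the drug's solvent, was added at baseline. Nothing in the labels makes the samples of a group separate cultures, and the p-values then cover the spread among these arrays alone, possibly a technical one. Drug, time in culture and solvent cannot be told apart, and neither can a smaller share of cells in a cell-cycle phase and less RNA per cell.

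Centrosomes organise microtubules around a pair of centrioles, which duplicate once per cell cycle, and they carry the gamma-tubulin ring complexes from which microtubules grow. The augmin complex, built of HAUS proteins, brings the same ring complexes to the sides of spindle microtubules. Centromeres are marked by nucleosomes with the histone variant CENP-A, on which the inner kinetochore proteins assemble and to which the outer kinetochore and spindle microtubules attach in mitosis. Many of these genes are transcribed mainly in late S and G2 phase.

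Each array gave 1 linear intensity per probe set, and medians over all probe sets other than controls were 43.3, 46.8 and 40.6 in dinaciclib F, 4 and 5, against 53.3, 66.2 and 60.8 in baseline E, 4 and 5. Over the members, the median intensities were 185, 200.4 and 172 in dinaciclib F, 4 and 5, against 242, 283 and 279 in baseline E, 4 and 5. With 3 arrays per group, precision is limited by their number. Samples named by a letter differed from numbered ones in an 18S ribosomal RNA control, which read 1155 in dinaciclib F and 736 in baseline E. The numbered dinaciclib samples read 8688 and 9061, the numbered baseline samples 8273 and 8642. The line's markers VIM (8878 after dinaciclib and 8944 at baseline) and CD44 (3739 after dinaciclib and 5114 at baseline) were bright, and PTPRC of leukocytes (13.1 after dinaciclib and 14.5 at baseline), ESR1 (14.8 after dinaciclib and 26.8 at baseline) and PGR (1.92 after dinaciclib and 2.91 at baseline) were dim. Among other identity markers, KRT18 (3508 after dinaciclib and 4170 at baseline) and KRT8 (889 after dinaciclib and 853 at baseline) were bright too. CDH1 (6.29 after dinaciclib and 8.12 at baseline) was dim. COL1A1 of fibroblasts (39.6 after dinaciclib and 43.7 at baseline) read above ESR1 and PTPRC. Of 11 such identity markers 2 fell (18.2%, near the 16.4% of all genes), EGFR and ERBB2, and 0 rose. Unadjusted p was under 0.05 in 4 of the 11, and in 4069 of all 11963 genes. EGFR averaged 179 after dinaciclib and 1002 at baseline and fell (log2 change -2.41, standard error 0.37, adjusted p = 0.00902).

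After dinaciclib 16 of the 45 members fell and 2 rose at an adjusted p under 0.05 in limma over all rows, and the other 27 missed that threshold. Of all genes, 16.4% fell and 3.54% rose by the same rule, against 35.6% and 4.44% of the members. Unadjusted p was under 0.05 in 26 of the 45 members and in 4069 of all 11963 genes. Every dinaciclib value lay below every baseline value in 27 members (60%; 30.7% of all genes) and above in 4 (8.89%; 9.36% of all genes). The median log2 change was -0.73 over the members and -0.26 over all genes, so the members' median was -0.47 relative to the median gene. Members were brighter than the array as a whole, with a median brightness at the 64.3th percentile, and bright genes passed more often: at or above the 40th percentile, 15 of 41 members fell (36.6%), against 23.1% of all genes. The median log2 change at that brightness was -0.57 over the members and -0.30 over all genes. Every dinaciclib value lay below every baseline value in 58.5% of these members and 41.1% of these genes. When the test was refitted on those bright genes alone, 21 of 41 members fell (51.2%), against 36.5% of the genes. Among the 4 numbered samples alone 13 members fell and 1 rose, while 9.86% of all genes fell and 1.92% rose. With letter or number as a covariate 16 members fell and 2 rose, while 19.1% of all genes fell and 5.01% rose. The letter-named samples, 1 per group, allow no test of their own.

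The 4 families are given side by side, with no test between them. By the same rule 4 of 13 CENP genes fell (30.8%) and 0 rose (unadjusted p under 0.05 in 8, in either direction). Over all 11963 genes, unadjusted p was under 0.05 in 4069. Of the CEP genes 9 of 23 fell (39.1%) and 1 rose, and of the HAUS genes 1 of 5 fell (20%) and 1 rose. Of the TUBGCP genes 2 of 4 fell (50%) and 0 rose (unadjusted p under 0.05 in 2). Of all genes 16.4% fell and 3.54% rose, so the HAUS share that fell was near that of all genes. The median log2 changes of the CENP, CEP, HAUS and TUBGCP genes were -0.57, -0.78, -0.47 and -0.87. CENP changes ranged from -3.41 to 0.49, CEP changes from -2.003 to 1.17, HAUS changes from -1.04 to 1.59 and TUBGCP changes from -1.79 to -0.0071. Each family thus held genes that fell beside genes near 0.

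**Figure D1:**
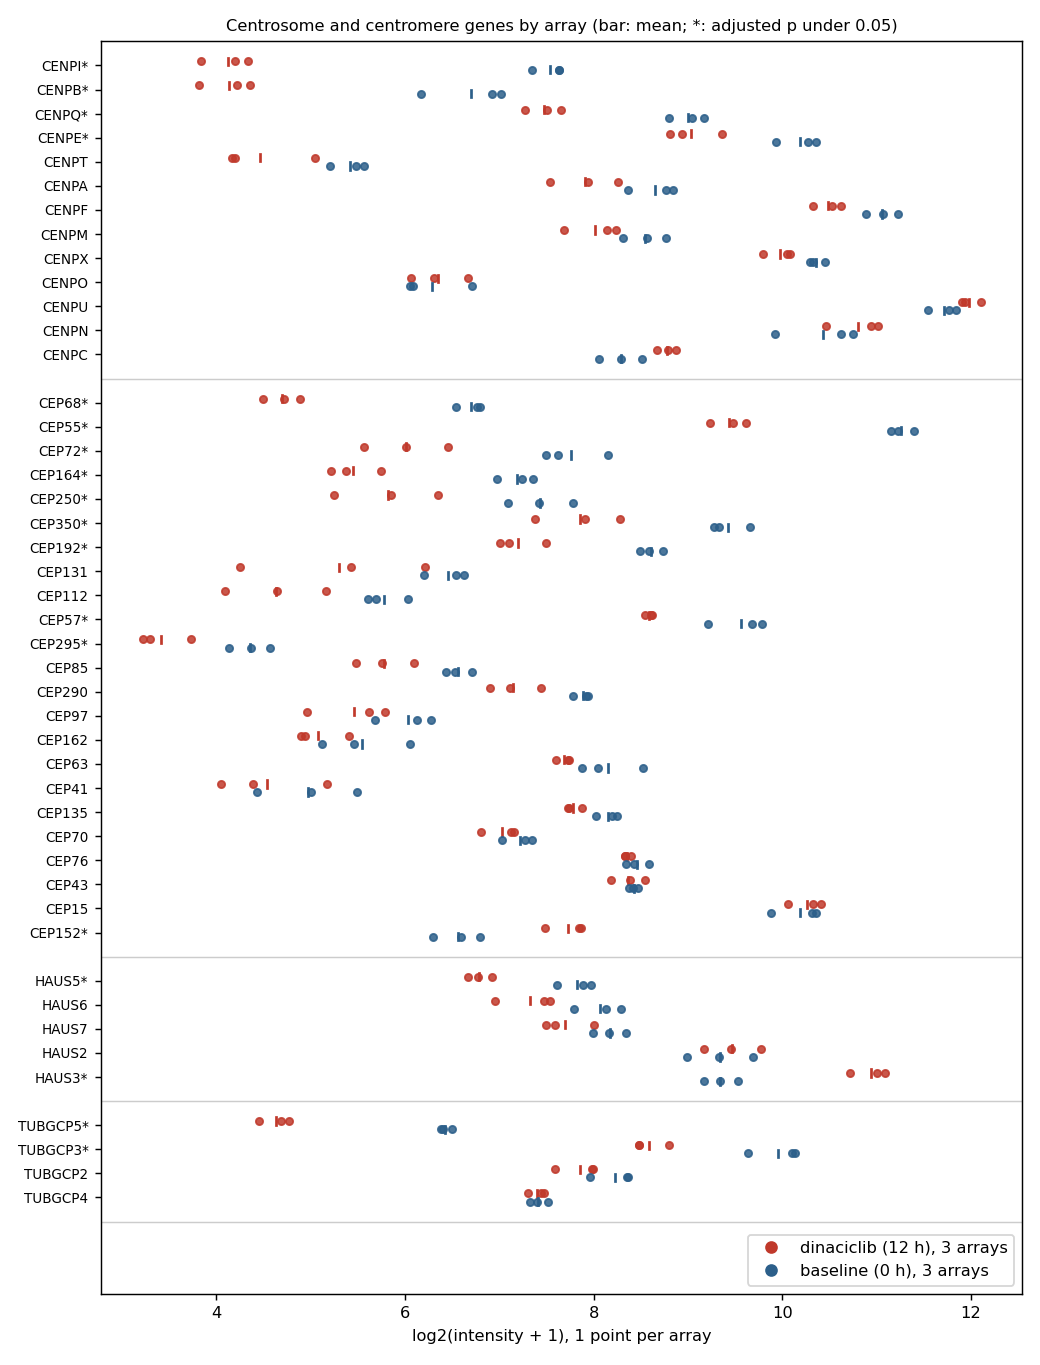
Intensity of the 45 genes on each array as log2(intensity + 1), with dinaciclib samples above baseline samples for each gene, 1 point per array, bars at the means and a star at genes past the threshold. The 3 points of each group are apart for CENPI, CEP55, TUBGCP5 and HAUS3 and overlap for CEP43 and TUBGCP4.

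**Figure D2:**
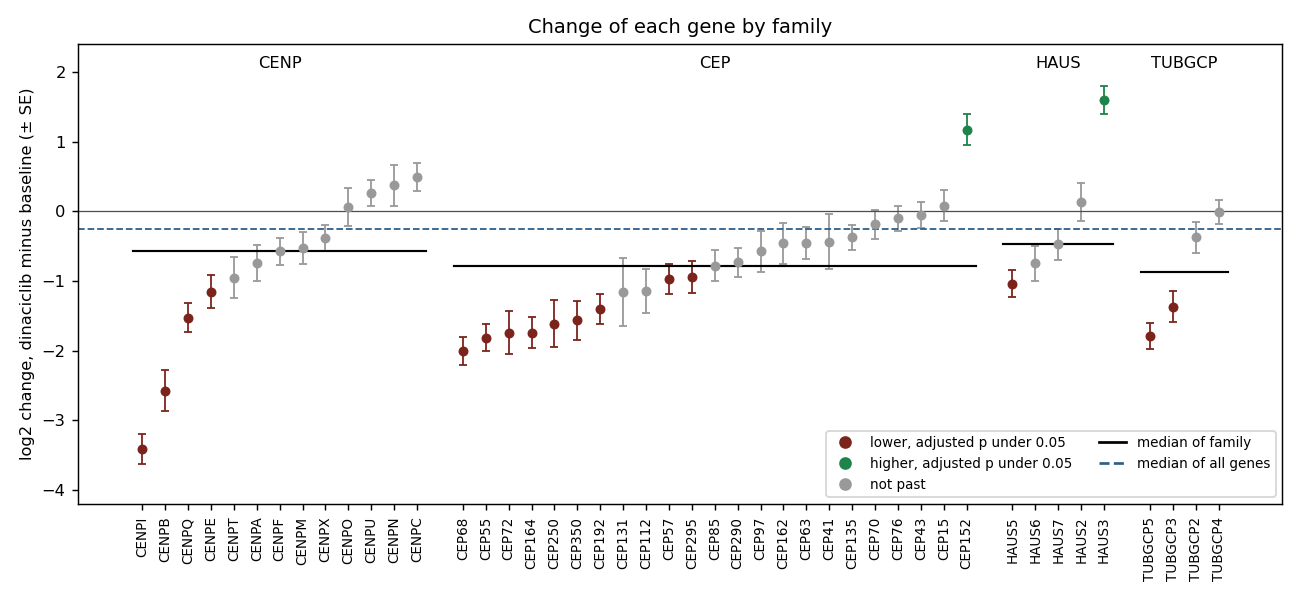
Log2 change, dinaciclib minus baseline, with its standard error for each gene, ordered within its family, with the median of each family as a solid line and of all genes (-0.26) as a dashed line. CENPI lies lowest at -3.41, and CEP152 (1.17) and HAUS3 (1.59) are the genes that rose.

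Promoter windows of 300 bases, 250 before and 50 after the transcription start in RefSeq (GRCh38.p14), were searched for letters linked to genes of the G2 and M phases: the cell cycle homology region (CHR), searched as TTTGAA and TTTAAA, and the CCAAT box bound by the factor NF-Y, on both strands. Windows were found for 41 members, 49 in all, as 7 members had several. A CHR match was in 43.8% of the 16 windows of members that fell and in 38.7% of the 31 windows of members that did not pass, against 19.3% of the 14057 windows of measured genes and 24.0% of all 35116 windows. For CCAAT the shares were 56.2% in members that fell and 48.4% in those that did not pass, against 35.1% of windows of measured genes and 34.6% of all windows. A match is a run of letters in a window and not a shown site. These shares count windows and not genes. The 2 CEP76 windows overlap and share a TTTGAA match, and CEP112 alone gives 3 windows. The shares of members that fell and of those that did not pass therefore give no comparison by gene. By family, CHR was in 6 of 12 CENP, 13 of 27 CEP, 0 of 6 HAUS and 1 of 4 TUBGCP windows.

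Windows are given for 4 genes named again below. CENPE and CEP55 fell, and of the pair CEP192 and CEP152 the first fell and the second rose. Each of these 4 windows holds a CHR match, while 7 of the 16 windows of members that fell did. The windows of CENPI and CENPB, which fell most, hold neither a CHR nor a CCAAT match. Capitals mark CHR and CCAAT matches, of which TTCAAA and ATTGG are the reverse complements, and the 4 windows read 5′ to 3′ along the gene. They lie on GRCh38.p14 at chr4:103198294-103198593, minus strand (CENPE), chr10:93496362-93496661, plus strand (CEP55), chr18:12991112-12991411, plus strand (CEP192) and chr15:48811020-48811319, minus strand (CEP152). In CENPE, 3 TTTAAA matches begin 195, 68 and 62 bases before the start, the last 2 of them directly joined. In CEP55, CHR matches begin 116 and 3 bases before the start, with CCAAT 102 bases before it. CEP192 holds CHR 194 bases before the start and CCAAT 167 and 126 bases before it. CEP152, which rose, holds the same letters, with CHR 179 and CCAAT 242 and 225 bases before the start.
CENPE: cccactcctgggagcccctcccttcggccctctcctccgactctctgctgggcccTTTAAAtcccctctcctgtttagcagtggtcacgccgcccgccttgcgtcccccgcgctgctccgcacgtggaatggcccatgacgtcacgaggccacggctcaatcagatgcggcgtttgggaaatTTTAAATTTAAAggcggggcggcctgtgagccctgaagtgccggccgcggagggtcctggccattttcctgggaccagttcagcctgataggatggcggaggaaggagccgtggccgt
CEP55: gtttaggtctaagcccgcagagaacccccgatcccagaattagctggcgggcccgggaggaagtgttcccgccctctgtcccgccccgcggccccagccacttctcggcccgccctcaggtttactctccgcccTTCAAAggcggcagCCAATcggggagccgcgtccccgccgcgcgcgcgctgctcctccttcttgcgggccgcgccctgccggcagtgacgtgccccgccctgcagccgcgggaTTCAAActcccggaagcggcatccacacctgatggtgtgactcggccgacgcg
CEP192: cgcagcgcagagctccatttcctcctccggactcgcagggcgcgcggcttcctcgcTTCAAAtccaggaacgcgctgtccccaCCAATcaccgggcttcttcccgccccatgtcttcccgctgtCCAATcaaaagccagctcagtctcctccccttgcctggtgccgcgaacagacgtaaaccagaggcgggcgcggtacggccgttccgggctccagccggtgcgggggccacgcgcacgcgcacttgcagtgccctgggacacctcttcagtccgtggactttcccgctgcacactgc
CEP152: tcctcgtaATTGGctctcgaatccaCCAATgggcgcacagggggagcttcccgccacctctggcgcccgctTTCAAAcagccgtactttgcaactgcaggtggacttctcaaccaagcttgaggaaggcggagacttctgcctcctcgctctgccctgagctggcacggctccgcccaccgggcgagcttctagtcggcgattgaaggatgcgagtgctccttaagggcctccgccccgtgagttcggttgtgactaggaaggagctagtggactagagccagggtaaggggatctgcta

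Of the proteins of centromeric chromatin, CENPB fell and CENPA did not pass. CENPB, which encodes the protein that binds a short motif in alpha-satellite DNA, read 13.1, 19.6 and 17.6 in dinaciclib F, 4 and 5, against 71.0, 120.2 and 129 in baseline E, 4 and 5. All treated samples were far below all baseline samples (log2 change -2.57, standard error 0.30, adjusted p = 0.00476). With treated values this dim, the size depends on the value added before the logarithm, and log2 changes of CENPB ran from -2.84 to -1.88 over the alternatives. CENPA, the histone H3 variant that marks the centromere, read 304, 244 and 185 in dinaciclib F, 4 and 5, against 328, 434 and 458 in baseline E, 4 and 5. Its groups did not overlap, but dinaciclib F came close to baseline E, and the change did not pass (log2 change -0.74, standard error 0.26, adjusted p = 0.103), though it did with log2(value + 16) (adjusted p = 0.0381) and without dim genes (0.0165).

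Of the 9 members in the constitutive inner kinetochore network, 2 fell, 0 rose and 7 did not pass. Unadjusted p was under 0.05 in 4 of these 9 members and in 4069 of all 11963 genes. The share that fell, 22.2%, was near the 16.4% of all genes and the 23.1% of genes at or above the 40th percentile of brightness. CENPI, which works in one subcomplex with CENPM, showed the lowest log2 change of all 45 members. It read 13.2, 17.3 and 19.2 in dinaciclib F, 4 and 5, against 197, 197 and 162 in baseline E, 4 and 5 (log2 change -3.41, standard error 0.22, adjusted p = 0.00263). With the treated values this near the dim end of the array, the size depends on the value added before the logarithm, and it was -2.63 with log2(value + 16). The second probe set of CENPI fell too (log2 change -1.95, standard error 0.27). CENPQ, part of the CENP-O subcomplex, read 153, 200.4 and 181 in dinaciclib F, 4 and 5, against 443, 577 and 528 in baseline E, 4 and 5. Every treated sample of CENPQ was below every baseline sample (log2 change -1.53, standard error 0.21, adjusted p = 0.00636).

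Partners of these genes in the same subcomplexes did not pass. CENPM read 205, 300.01 and 281 in dinaciclib F, 4 and 5, against 317, 434 and 377 in baseline E, 4 and 5, and did not pass (log2 change -0.53, standard error 0.24, adjusted p = 0.187). CENPO, of the same subcomplex as CENPQ, had overlapping groups and a log2 change of 0.062 (standard error 0.27). CENPU, of that subcomplex as well, read 3840.3, 4397 and 3909.9 in dinaciclib F, 4 and 5, against 2992, 3659 and 3483 in baseline E, 4 and 5, with every treated sample slightly higher. It did not pass (log2 change 0.26, standard error 0.18, adjusted p = 0.395) except after median centring (0.72). CENPC, which ties CENP-A nucleosomes to the outer kinetochore, read 406, 468 and 440.2 in dinaciclib F, 4 and 5, against 311, 365 and 266 in baseline E, 4 and 5. It too was above baseline in every treated sample without passing as deposited (log2 change 0.49, standard error 0.20, adjusted p = 0.151), and it passed as higher after quantile normalization (0.85) and median centring (0.94). CENPN, which recognises the CENP-A nucleosome, had a log2 change of 0.37 (standard error 0.30) with overlapping groups, and its second probe set one of -0.88 (standard error 0.35), neither past the test. The histone-fold genes CENPT (-0.95, standard error 0.29) and CENPX (-0.38, standard error 0.18) were below baseline in every treated sample and did not pass. CENPT passed without dinaciclib 4 (log2 change -1.24, adjusted p = 0.0344), the highest of its treated samples, and with log2(value + 16) (-0.63).

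Of the genes of the fibrous corona, the outermost layer of the kinetochore, CENPE fell, while the brightest probe set of CENPF missed the threshold. CENPE, a kinesin motor that carries chromosomes to the spindle equator, read 659, 489 and 448 in dinaciclib F, 4 and 5, against 1313, 980.4 and 1238 in baseline E, 4 and 5. The highest treated value was still well below the lowest baseline value (log2 change -1.15, standard error 0.23, adjusted p = 0.0205). The call was lost without baseline E (adjusted p = 0.0512), baseline 5 (0.0775), dinaciclib 4 (0.0685) or dinaciclib 5 (0.0674), in the numbered samples alone (0.0505), after quantile normalization (0.0719) and after median centring (0.099), with log2 changes of -1.32 to -0.70 over all alternatives. CENPF, a large coiled-coil protein of the corona, read 1573, 1470.5 and 1283 in dinaciclib F, 4 and 5, against 2146, 1898 and 2392 in baseline E, 4 and 5. Its groups did not overlap, and the change did not pass (log2 change -0.57, standard error 0.19, adjusted p = 0.0946), though it did with log2(value + 16) (adjusted p = 0.0295) and without dim genes (0.027). A dimmer CENPF probe set fell (log2 change -1.22, adjusted p = 0.0317).

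Among CEP genes, those of the pericentriolar material, the linker between centrioles and the satellites fell in 4 of 6 cases and rose in 0. Of all genes 16.4% fell. Unadjusted p was under 0.05 in 4 of these 6 genes and in 4069 of all 11963 genes. Of the 4 falls, those of CEP250 and CEP350 were lost with the mean of the probe sets. CEP350, described below as a centriolar protein, was counted in this group. CEP68, a linker protein that keeps the centrosomes of interphase cells together, read 28.6, 25.3 and 21.5 in dinaciclib F, 4 and 5, against 92.4, 108 and 110.2 in baseline E, 4 and 5. The treated samples of CEP68 were all below 29 and the baseline samples all above 92 (log2 change -2.003, standard error 0.20, adjusted p = 0.00354). Of its 3 probe sets 2 fell, and the third had overlapping groups and a log2 change of 0.068 (standard error 0.29), so that the mean of all gave -1.22 (adjusted p = 0.0117). CEP250, which anchors that linker, read 80.7, 56.6 and 37.1 in dinaciclib F, 4 and 5, against 219, 170.0 and 136 in baseline E, 4 and 5 (log2 change -1.61, standard error 0.34, adjusted p = 0.0225). A second CEP250 probe set rose, with 103, 70.9 and 52.7 in dinaciclib F, 4 and 5, against 25.2, 31.5 and 37.3 in baseline E, 4 and 5 (log2 change 1.21, standard error 0.30, adjusted p = 0.0417). The direction of CEP250 therefore rests on which probe set is read, and the mean of both gave -0.20 (adjusted p = 0.699). Its call was also lost without baseline E (0.0608), baseline 4 (0.0746), dinaciclib 4 (0.0628) or dinaciclib 5 (0.0552), in the numbered samples alone (0.0522), after quantile normalization (0.0932) and after median centring (0.0606).

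CEP72, of the pericentriolar material and satellites, read 87.0, 63.3 and 46.4 in dinaciclib F, 4 and 5, against 179, 283 and 196 in baseline E, 4 and 5, and fell (log2 change -1.75, standard error 0.31, adjusted p = 0.0131). CEP350, a large centriolar protein, read 310.2, 239 and 166 in dinaciclib F, 4 and 5, against 621, 640.4 and 806 in baseline E, 4 and 5 (log2 change -1.56, standard error 0.28, adjusted p = 0.0139). Its groups were far apart. Of the 4 CEP350 probe sets 2 fell, and the others did not pass, with log2 changes of -0.13 and 0.48, so that the mean of all gave -0.65 (adjusted p = 0.123). The call was also lost without baseline 5 (0.0552) and with samples 4, samples 5 and the letter-named samples joined as blocks (0.051). CEP131, a satellite protein, spread widely after treatment, with 72.9, 18.0 and 42.2 in dinaciclib F, 4 and 5, against 72.3, 92.4 and 97.8 in baseline E, 4 and 5. Dinaciclib F lay within the baseline range of CEP131, and the change did not pass (log2 change -1.16, standard error 0.49, adjusted p = 0.166) except without dim genes (adjusted p = 0.0205). CEP70 had overlapping groups (-0.19, standard error 0.20).

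Genes of centriole duplication and elongation fell in 3 of 9 cases and rose in 1, while 16.4% of all genes fell and 3.54% rose. Among these falls, that of CEP295, passed in no more than 3 of 14 alternatives. CEP192 and CEP152 both encode scaffolds that bring PLK4, the kinase that starts centriole duplication, to the parent centriole, and they moved in opposite directions. CEP192 read 179.5, 136 and 128 in dinaciclib F, 4 and 5, against 359, 425 and 383 in baseline E, 4 and 5, a fall seen in every sample (log2 change -1.40, standard error 0.21, adjusted p = 0.00837). CEP152 read 233, 229 and 178 in dinaciclib F, 4 and 5, against 95.5, 109.7 and 77.3 in baseline E, 4 and 5, a rise seen in every sample (log2 change 1.17, standard error 0.22, adjusted p = 0.0165). The fall of CEP192 passed in every alternative run. CEP152 no longer passed without baseline 5 (adjusted p = 0.066), dinaciclib F (0.0511) or dinaciclib 4 (0.0597), in the numbered samples alone (0.0886), after centring on spiked controls (0.0606) or as the mean of its probe sets (0.0586). Its second probe set had a log2 change of 0.55 (standard error 0.28) and did not pass. PLK4 itself averaged 249 after dinaciclib and 679 at baseline and fell (log2 change -1.44, standard error 0.17, adjusted p = 0.00499).

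CEP57 and CEP63 encode partners of CEP152 in a ring around the parent centriole. CEP57 fell on each of its 5 probe sets, with log2 changes of -1.87 to -0.97. Its brightest probe set read 389, 391 and 373 in dinaciclib F, 4 and 5, against 594, 880.0 and 819 in baseline E, 4 and 5 (log2 change -0.97, standard error 0.22, adjusted p = 0.0267), with the treated samples close together and far below the rest. The call on this probe set ended without baseline 4 (0.0918), baseline 5 (0.103), dinaciclib F (0.068), dinaciclib 4 (0.0781) or dinaciclib 5 (0.0813). The mean of the 5 probe sets fell by 1.46 on the log2 scale. CEP63 read 211, 213 and 193 in dinaciclib F, 4 and 5, against 234, 263 and 367 in baseline E, 4 and 5, and did not pass (log2 change -0.46, standard error 0.23, adjusted p = 0.232).

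CEP295, needed to turn new centrioles into centrosomes, was dim throughout, with 8.85, 12.3 and 8.32 in dinaciclib F, 4 and 5, against 22.7, 19.7 and 16.5 in baseline E, 4 and 5. It passed as deposited (log2 change -0.94, standard error 0.23, adjusted p = 0.0356) but in few alternatives, and leaving out any sample other than dinaciclib 4 ended the call (adjusted p of 0.0739 without baseline 5 to 0.109 without dinaciclib 5). CEP85, a regulator of centriole duplication (-0.78, standard error 0.23), was below baseline in every treated sample and passed only with log2(value + 16) (adjusted p = 0.023) and without dim genes (0.00778). CEP97 (-0.57, standard error 0.29), which caps centrioles with CCP110, and CEP76 (-0.10, standard error 0.17), which limits reduplication, did not pass. The brightest probe set of CEP135, a protein of the centriole wall, missed the threshold (-0.37, standard error 0.18), and there each treated sample was slightly below baseline. Its dim second probe set rose, with 27.9, 31.4 and 41.6 in dinaciclib F, 4 and 5, against 14.2, 14.1 and 15.6 in baseline E, 4 and 5 (log2 change 1.13, adjusted p = 0.0183).

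Of 5 genes of centriole appendages and cilia, 1 fell, 0 rose and 4 did not pass. Unadjusted p was under 0.05 in 2 of the 5, and in 4069 of all 11963 genes. The share that fell, 20.0%, was near the 16.4% of all genes. CEP164, a distal appendage protein that docks centrioles to the membrane, read 52.7, 36.2 and 40.5 in dinaciclib F, 4 and 5, against 163, 150.3 and 125 in baseline E, 4 and 5 (log2 change -1.74, standard error 0.22, adjusted p = 0.0057). Its second, dimmer probe set did not pass (-0.58, standard error 0.38), and the mean of both fell by 1.16 on the log2 scale. CEP290, of the ciliary transition zone, read 118, 138 and 172 in dinaciclib F, 4 and 5, against 242, 219 and 245 in baseline E, 4 and 5. Its groups were apart without the change passing (log2 change -0.73, standard error 0.21, adjusted p = 0.0586), and it passed with log2(value + 16) (-0.68) and without dim genes (adjusted p = 0.00904). CEP162 (-0.46, standard error 0.30), CEP41 (-0.44, standard error 0.40) and CEP43 (-0.054, standard error 0.18) had overlapping groups. The dimmer second probe set of CEP162 was below baseline in every treated sample and did not pass either (log2 change -1.88, standard error 0.76, adjusted p = 0.158), and the mean of both gave -1.17 (adjusted p = 0.143). CEP15 (0.079, standard error 0.22) overlapped as well. CEP112 read 24.0, 34.8 and 16.1 in dinaciclib F, 4 and 5, against 64.4, 50.9 and 47.8 in baseline E, 4 and 5, and lay just outside the threshold (log2 change -1.15, adjusted p = 0.0501). It passed without dinaciclib 4 (-1.41, adjusted p = 0.0389), its highest treated sample, and with log2(value + 16) (-0.80).

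CEP55, which recruits the machinery that cuts the midbody at the end of cell division, was bright in both groups and fell. It read 599, 781 and 713 in dinaciclib F, 4 and 5, against 2279.8, 2694 and 2388 in baseline E, 4 and 5, and each baseline sample was above each treated sample by more than the spread within either group (log2 change -1.82, standard error 0.19, adjusted p = 0.00424). CEP55 passed in every alternative run, with log2 changes of -1.90 to -1.37.

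Of the 5 augmin genes 1 rose, 1 fell and 3 did not pass, and the 20% that fell was near the 16.4% of all genes. HAUS3 had the largest rise of the 45 members, with 1687, 2173 and 2052 in dinaciclib F, 4 and 5, against 573, 645 and 739 in baseline E, 4 and 5. Each treated sample was above every baseline sample (log2 change 1.59, standard error 0.20, adjusted p = 0.00565), and the rise passed in every alternative run (1.504 to 2.04). HAUS5 fell on each of its 3 probe sets, and the brightest read 101, 120.1 and 108 in dinaciclib F, 4 and 5, against 195, 236 and 250.4 in baseline E, 4 and 5 (log2 change -1.04, standard error 0.19, adjusted p = 0.0156). The call for HAUS5 ended without baseline 4 (0.0622), baseline 5 (0.0707) or dinaciclib 5 (0.053). HAUS6, which binds the gamma-tubulin complex through its partner NEDD1, read 185, 177 and 123 in dinaciclib F, 4 and 5, against 220.0, 312 and 279 in baseline E, 4 and 5, and did not pass (log2 change -0.75, standard error 0.25, adjusted p = 0.0906) except with log2(value + 16) (adjusted p = 0.0327) and without dim genes (0.0141). HAUS7 (-0.47, standard error 0.22) and HAUS2 (0.13, standard error 0.27) had overlapping groups. Transcripts of subunits of this 1 complex were thus higher, lower or not past the test.

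Of the gamma-tubulin complex proteins, TUBGCP3 and TUBGCP5 fell and TUBGCP2 and TUBGCP4 did not pass. TUBGCP5, a subunit of the full ring, read 26.3, 20.8 and 24.7 in dinaciclib F, 4 and 5, against 83.4, 82.4 and 89.2 in baseline E, 4 and 5, with little spread in either group (log2 change -1.79, standard error 0.18, adjusted p = 0.00393). It passed in every alternative run. TUBGCP3, of the small core complex with TUBGCP2, read 446, 357 and 356 in dinaciclib F, 4 and 5, against 798, 1122 and 1101 in baseline E, 4 and 5 (log2 change -1.37, standard error 0.22, adjusted p = 0.0108). Its dim second probe set did not pass (0.057, standard error 0.23), and their mean did not pass (log2 change -0.66, adjusted p = 0.0569). TUBGCP2 read 251.1, 253 and 192 in dinaciclib F, 4 and 5, against 249, 329.6 and 327 in baseline E, 4 and 5, and its groups overlapped (log2 change -0.38, standard error 0.22, adjusted p = 0.31). TUBGCP4 read 157, 177 and 172 in dinaciclib F, 4 and 5, against 159, 182 and 167 in baseline E, 4 and 5, with overlapping groups (log2 change -0.0071, standard error 0.17, adjusted p = 0.986).

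Of the 45 members 18 had 2 or more probe sets, 46 in all, tested here over every probe set of the array. All probe sets of a gene had the same sign in 11 of the 18 and mixed signs in 7. CENPI, CEP57 and HAUS5 fell on every probe set. CEP250 was the 1 gene called in opposite directions.

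**Figure D3:**
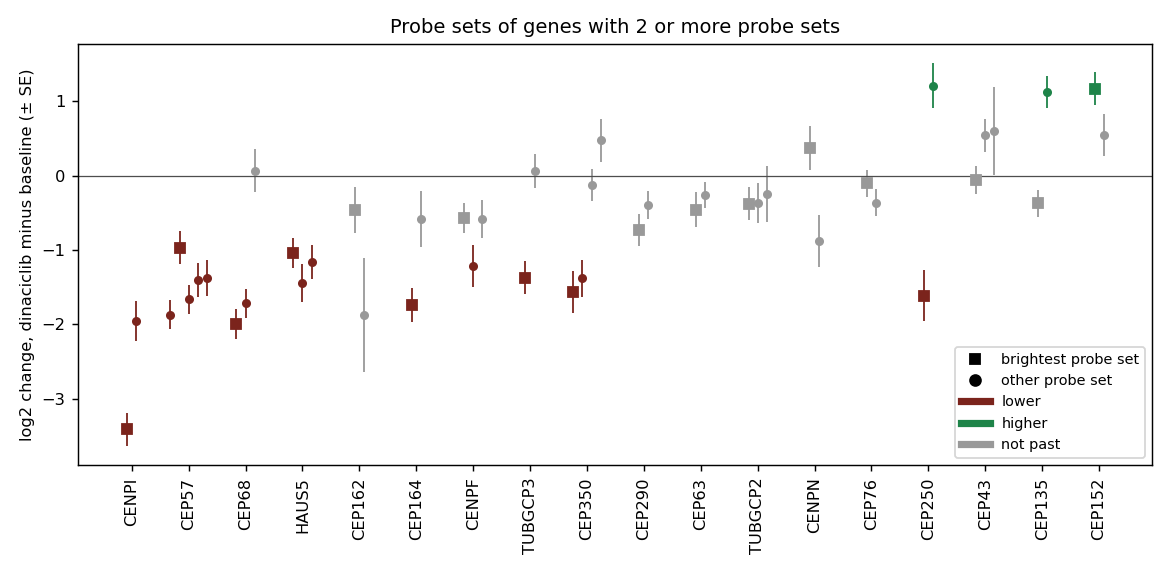
Log2 change, dinaciclib minus baseline, with its standard error for each probe set of the 18 genes with 2 or more, the brightest as a square, coloured by whether it fell, rose or did not pass. All 5 CEP57 probe sets lie between -1.87 and -0.97, while those of CEP250 lie at -1.61 and 1.21.

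Genes that work with the members fell in 2 to 10 cases and, by this rule, rose in 0 in each of 5 lists. Unadjusted p was under 0.05, in either direction, in 3 to 13 genes of each list and in 4069 of all 11963 genes. The shares that fell were 20.0% to 54.5%, while 16.4% of all genes fell. The median brightness of these lists lay at the 56.5th to 84.2th percentile of all genes, and of genes at or above the 40th percentile 23.1% fell. Of 22 outer kinetochore genes 10 fell, with a median log2 change of -0.78, led by DSN1 of the MIS12 complex (log2 change -2.96, standard error 0.18, adjusted p = 0.00263) and NDC80, the microtubule coupler (log2 change -2.61, standard error 0.24, adjusted p = 0.00346). NDC80 averaged 318 after dinaciclib and 1943 at baseline. Of 17 genes listed for the pericentriolar material, satellites and appendages 9 fell (median -0.94), led by CNTRL (-2.20) and NINL (-1.61), while PCNT, the main scaffold, did not pass (log2 change -1.08, standard error 0.32, adjusted p = 0.0618). The 17 include AZI2 (log2 change -0.041), a signalling adaptor and not a gene of these structures, which did not pass. Of 11 gamma-tubulin and spindle nucleation partners 6 fell (median -0.88), led by ASPM, a spindle pole protein, with 337, 236 and 197 in dinaciclib F, 4 and 5, against 2385, 2149 and 2526 in baseline E, 4 and 5 (log2 change -3.23, standard error 0.25, adjusted p = 0.00305), and by TACC3 (-2.08). TUBG1, gamma-tubulin itself, fell (log2 change -0.94, standard error 0.24, adjusted p = 0.0416).

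Of 14 centriole partners 5 fell (median -0.62), led by TEDC2 (-2.22) and CCDC15 (-1.86). CPAP, a centriole elongation factor, is named here because its former symbol was CENPJ. It averaged 216 after dinaciclib and 114 at baseline and did not pass (log2 change 0.95, standard error 0.38, adjusted p = 0.145). A list of 10 centromere chaperones and loading factors also held centromere proteins of other roles. Of these 10 genes 2 fell (20.0%, near the 16.4% of all genes), with a median of -0.35, against -0.26 over all genes. They were OIP5 (-1.28), which helps load CENP-A, and RSF1 (-1.24), while HJURP, the CENP-A chaperone, did not pass (log2 change -0.66, standard error 0.21, adjusted p = 0.0785). Of 10 proliferation genes 5 fell (50%) and 0 rose (unadjusted p under 0.05 in 7), with log2 changes from -1.61 for CDC20 to 0.30 for MKI67, and their part in the members' changes was not tested.

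**Figure D4:**
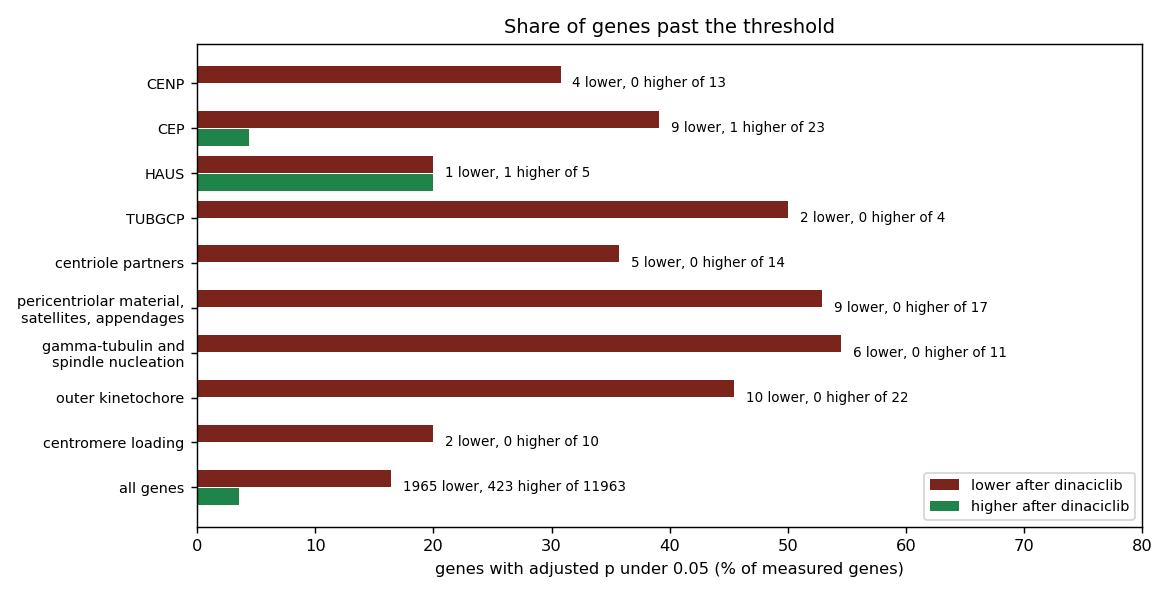
Share of measured genes that fell or rose at an adjusted p under 0.05 in each family, in 5 lists of partner genes and among all genes, with the counts beside the bars. All genes stand at 16.4% lower and 3.54% higher, TUBGCP at 2 of 4 lower, and HAUS at 1 lower and 1 higher of 5.

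Of the 16 members that fell, 9 passed in every alternative run: CENPI, CENPB, CENPQ, CEP68, CEP55, CEP72, CEP164, CEP192 and TUBGCP5. HAUS3 was the 1 gene of the 2 that rose to do so. Of the 27 members that did not pass, 17 passed in none of the alternatives. The scaling of the arrays set the level from which a fall was counted: the median log2 change of all genes was -0.26 as deposited, -0.02 after quantile normalization and 0.19 after median centring, and the members' medians were -0.73, -0.30 and -0.28. The count of members that fell was 16, 13 and 13 of 45 under these scalings, and that of members that rose 2, 3 and 4. Of all genes 16.4%, 13.4% and 10.9% fell and 3.54%, 8.89% and 16.3% rose.

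**Figure D5:**
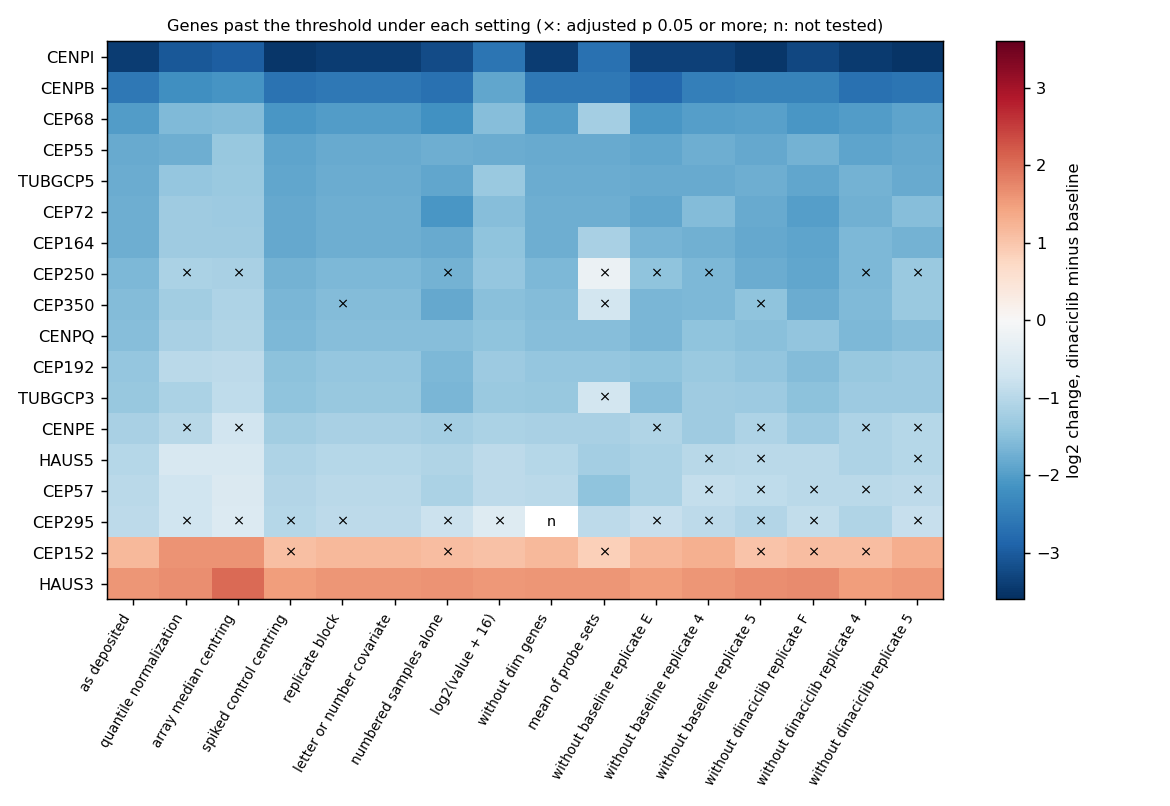
Log2 change, dinaciclib minus baseline, of the 18 genes past the threshold (rows) under each setting (columns), blue for lower and red for higher, with a cross where the adjusted p was 0.05 or more and n where the gene was not tested. CENPI stays blue without a cross across the row, and CEP295 carries the most crosses.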

How the data were processed

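RNA of 6 MDA-MB-231 samples, 3 of dinaciclib and 3 of baseline, was measured with a single-label array of 22277 probe sets. The authors deposited 1 intensity per probe set and array, on a linear scale as the values show, and the summary method and scaling are not given in the sources used here. The authors' step from scan to intensity can thus differ between dim and bright probe sets in ways not analysed here. Probe sets were named from the platform annotation and their symbols updated through the gene identifier with RefSeq (GRCh38.p14). The brightest probe set by mean stood for each gene, 62 controls were left out, and 3151 rows without a single gene stayed in the test, 15114 rows in all. log2(value + 1) was fitted in limma 3.58.1 (lmFit, eBayes; R 4.3.3), with group as the only term, Benjamini-Hochberg adjustment over all rows and a threshold of 0.05. Adjusted p-values of single probe sets come from a separate limma fit over every probe set, and those of alternatives from a limma refit under each. The log2 changes understate those of dim genes. The steps were tested on simulated data. Promoter windows were searched and figures drawn with Python 3.11.15 and matplotlib 3.10.9. Members, partner lists and alternatives were chosen with earlier results of these data known. Every member was named, and of each partner list the 2 genes that fell and the 2 that rose most among those called, plus PLK4, TUBG1, NDC80, HJURP, PCNT and MKI67. CPAP, AZI2, CDC20, EGFR, ERBB2, VIM, CD44, PTPRC, ESR1, PGR, KRT18, KRT8, CDH1 and COL1A1 were named outside this rule, after their values were seen. Protein length was not analysed here, and averaged probe sets, quantile, median and spiked-control (45 probe sets) scaling, letter-named against numbered samples as a covariate, the numbered samples alone, a replicate block, log2(value + 16), a filter on the dimmest 40% of genes and left-out samples were tried as alternatives.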

Additional observations from a re-analysis of the deposited data

How the results depend on the processing

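The count of members that fell stayed between 11 and 22 over all alternatives, and between 11 and 15 when 1 sample was left out, all within 1.5 times of 16. With the replicate block, which joins samples 4, 5 and the letter-named pair, 14 fell and 2 rose, while 15.5% of all genes fell and 3.76% rose. The calls of CEP295 (adjusted p = 0.0512) and CEP350 (0.051) were lost with this block. Deviations of the samples joined by the block correlated at 0.15 (F with E), 0.07 (4) and 0.07 (5), against -0.098 to 0.030 for other pairings. The joined samples thus correlated most, though weakly, and the labels do not state pairs. Whether the samples are paired was not settled, and the main test treats them as unpaired. The median of the members was -0.30 after quantile normalization and -0.28 after median centring. Under these 2 scalings the CENP median was -0.33 and -0.12, the CEP median -0.30 and -0.33, the HAUS median -0.039 and -0.021, and the TUBGCP median -0.53 and -0.42. With log2(value + 16), 7 CENP and 2 HAUS genes fell, and without dim genes 2 HAUS genes, while the share of all genes that fell was 22.4% and 36.5% in these fits, against 16.4%. Leaving out 1 sample gave 0 to 1 falling HAUS genes. With averaged probe sets 1 TUBGCP gene fell, and the TUBGCP median was -0.49. Signs turned in genes that did not pass in any of these: CENPN with the mean of probe sets (-0.25), CENPO with spiked controls (-0.023), CEP15 likewise (-0.0059), CENPX under median centring (0.067), CEP41 likewise (0.012), and CEP43 in the numbered samples (0.014) and with the mean of probe sets (0.36). Under quantile normalization and median centring signs turned for CEP135 (0.050 and 0.078, and 0.38 with the mean of probe sets), CEP43 (0.34 and 0.40), CEP70 (0.29 and 0.26), CEP76 (0.30 and 0.35), TUBGCP2 (0.067 and 0.077) and TUBGCP4 (0.46 and 0.44). With 1 sample left out, ranges crossed 0 for CENPO (-0.097 to 0.28), CEP15 (-0.073 to 0.18), CEP43 (-0.14 to 0.039), HAUS2 (-0.039 to 0.31) and TUBGCP4 (-0.052 to 0.046). Over the 671 pairs of member and alternative, 44 calls were lost and 18 gained, and the 29 sign changes all fell on genes that did not pass in the test as deposited. The cause was not tested. Over all genes 1965 fell and 423 rose as deposited, against 1606 and 1064 after quantile normalization, 1300 and 1950 after median centring, 1593 and 242 with spiked controls, 2683 and 645 with log2(value + 16), 1179 and 230 in the numbered samples alone, and 898 to 1838 falls and 185 to 316 rises with 1 sample left out.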
